A study of Rattus norvegicus with 6 samples.

Results

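The cytochrome P450 family 4 genes encode fatty acid omega-hydroxylases, and 10 rat members were followed in liver of weaned pups: Cyp4a1, Cyp4a2, Cyp4a3, Cyp4a8, Cyp4b1, Cyp4f1, Cyp4f4, Cyp4f5, Cyp4f6 and Cyp4v3. Members were found as the probe sets whose annotated symbol is one of these names, and where a gene had more than 1, its brightest probe set by the mean of the 6 arrays stands for it. Of the 10 members, 9 had a probe set of their own among 14217 named genes, and all 9 were among the 10372 genes bright enough to be tested. Cyp4a2 appeared only on a probe set annotated to Cyp4a3 as well, so it has no value of its own.

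The samples were livers of Sprague-Dawley pups at 3 weeks of age, measured on Affymetrix arrays, 1 array per sample. The 3 control pups came from dams on standard chow and the 3 high fat pups from dams on a high fat diet; no other treatment, genotype or sex is given in the labels. The comparison asks how a fat-rich diet of the dam is reflected in the liver of her weaned offspring. The labels do not say whether pups shared a dam, so the spread between arrays is that between these pups.

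Omega-hydroxylases add a hydroxyl group to the last carbon of a fatty acid, the end farthest from the carboxyl group. Alcohol and aldehyde dehydrogenases then turn that end into a second carboxyl group, and peroxisomes shorten the resulting dicarboxylic acid. Cyp4a enzymes act mainly on medium and long saturated fatty acids and on arachidonic acid, and their genes are classical targets of the fatty acid receptor PPAR alpha in rodent liver. Cyp4f enzymes act on leukotrienes and other eicosanoids, Cyp4b1 is best known from lung and also oxidises foreign compounds, and Cyp4v3 is the rat relative of a human gene whose loss causes a crystalline disease of the retina.

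In the current rat gene table Cyp4a8, Cyp4a2, Cyp4a3, Cyp4a1 and Cyp4b1 lie on chromosome 5, the Cyp4f members on chromosome 7 and Cyp4v3 on chromosome 16. There Cyp4a3 is followed directly by Cyp4a1 and that by Cyp4b1. RefSeq promoter windows (build GRCr8) were matched for 7 of the 10 members, and none for Cyp4a1, Cyp4f4 or Cyp4v3. The 250 bases before the start site of 3 Cyp4a genes are shown because 2 of these genes share a probe set. All 3 lie on the minus strand, Cyp4a2 at chr5:134170909-134171158, Cyp4a3 at chr5:134352237-134352486 and Cyp4a8 at chr5:133970227-133970476. They are written 5′ to 3′, with the letters AGGTCA, the core element bound by nuclear receptors, in capitals.
Cyp4a2: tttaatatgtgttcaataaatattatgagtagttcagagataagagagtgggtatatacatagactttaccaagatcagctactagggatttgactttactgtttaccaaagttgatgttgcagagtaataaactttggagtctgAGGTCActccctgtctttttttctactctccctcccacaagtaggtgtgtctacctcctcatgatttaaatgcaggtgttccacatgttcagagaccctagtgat
Cyp4a3: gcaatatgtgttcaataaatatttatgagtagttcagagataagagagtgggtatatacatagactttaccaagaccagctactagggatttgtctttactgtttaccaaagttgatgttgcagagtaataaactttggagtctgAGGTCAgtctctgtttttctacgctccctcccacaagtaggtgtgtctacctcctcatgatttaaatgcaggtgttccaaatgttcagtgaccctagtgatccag
Cyp4a8: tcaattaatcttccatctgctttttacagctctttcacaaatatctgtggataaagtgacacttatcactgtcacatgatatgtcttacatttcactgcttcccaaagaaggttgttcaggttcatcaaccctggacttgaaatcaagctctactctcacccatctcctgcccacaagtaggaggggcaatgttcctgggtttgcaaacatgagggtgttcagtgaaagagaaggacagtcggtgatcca

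The Cyp4a2 and Cyp4a3 windows were identical at 236 of 245 aligned bases, 96.3%, whereas Cyp4a2 and Cyp4a8 were identical at 143 of 238 (60.1%). Cyp4a3 and Cyp4a8 were at 60.6%. Pairs of a Cyp4a member with Cyp4b1 or a Cyp4f member ran from 48.5% for Cyp4a8 with Cyp4f1 to 62.3% for Cyp4a8 with Cyp4b1, so Cyp4a8 was no more alike to Cyp4a2 and Cyp4a3 than to Cyp4b1 by this measure. The gene table holds a further gene, Cyp4a2l1, whose window was identical to that of Cyp4a2 over all 214 aligned bases. AGGTCA, searched on both strands, was found 105 bases before the start in Cyp4a2 and in Cyp4a3 and in no other member's window. It occurs in 14.1% of the 33469 windows in the table. The direct repeat that PPAR alpha and its partner bind, searched as AGGTCA, any 1 base and AGGTCA again on both strands, was in 0.0508% of all windows and in none of the 7. A sequence this rare would seldom be met in 7 windows, so its absence says little about these genes. Cyp4a1 had no window, and neither variants of the repeat nor bases farther from the start were searched. The letters CCAAT were in the windows of Cyp4f1 and Cyp4f5 and in 34.0% of all windows, and TATAAA was in none of the 7 and in 12.9% of all.

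High fat replicate 1 carried transcripts of exocrine pancreas, with a summed level of 15.76 over 11 markers against 10.83 to 12.01 in the other arrays. In high fat replicate 3 Xist was at 4.45 against 12.46 to 13.31 elsewhere and Eif2s3y at 11.14 against at most 3.99. Sex is not given in the labels. No control array had low Xist with high Eif2s3y, so this pattern was not balanced between the groups. Uty, a further Y-linked name among the measured transcripts, was at 10.26 in high fat replicate 3 and 10.64 to 11.20 elsewhere. Its probe set was thus bright also where Xist was high and Eif2s3y low, and does not separate the arrays. Of 9 hepatocyte markers measured, 8 stood above 14 on the log2 scale. The array maxima were 15.08 to 15.47 before normalization, and whether signals near them still scale with the transcript was not tested. Nor was it tested for the brightest CYP4 probe sets. These were those of Cyp4a1, Cyp4f1 and the one shared by Cyp4a3 and Cyp4a2, with means over all arrays of 13.85, 14.05 and 14.23. The other hepatocyte marker, Tat, differed by -0.51 (SE 0.38), and the median of all 9 was -0.03. Of 8 endothelial markers, 6 had an unadjusted limma p under 0.05 and a lower mean in high fat pups, against 7.49% of all genes, and none passed an adjusted p under 0.05. Lyve1 was at -0.57 and Stab2 at -0.97, whereas Pecam1 (-0.09) and Eng (-0.05) did not have such a p. The endothelial median was -0.59, with summed levels of 14.29 to 14.48 against 13.50 to 13.90. Of 5 erythroid markers tested, 2 had such a p with a lower mean, Slc4a1 (-0.96) and Tfrc (-0.61). Hemgn (-0.82), Ahsp (-0.33) and Alas2 (-0.3) did not have such a p. The erythroid median was -0.61, and the summed levels of all 6 measured were 14.01 to 14.34 against 13.18 to 13.97. That sum mostly follows Tfrc, by far the brightest of them, at 13.92 to 14.17 in controls and 13.05 to 13.85 in high fat arrays. A mean below the control mean, as in all 8 endothelial and all 5 erythroid markers, was found for 53.1% of all genes. Fewer cells of a type and less RNA per cell cannot be told apart in whole liver, and the part of these shifts in the Cyp4a values was not tested. Stellate cell markers went both ways, with 2 of 8 higher at an unadjusted limma p under 0.05, Lrat (0.70) and Col1a1 (0.44), and 3 lower, Dcn (-1.5), Acta2 (-0.49) and Pdgfrb (-0.48). Kupffer cell markers had a median of -0.03, with 1 of 7 lower at such a p, Cd163 (-0.52), and the 4 neutrophil markers tested a median of -0.04. The 2 cholangiocyte markers tested, of 5 measured, had one of 0.40, and of 6 kidney tubule markers 5 had means below the brightness limit. No marker of these lists was at 0 on all arrays.

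All 3 Cyp4a genes with their own probe set had higher mean levels in pups of high fat dams, by 1.6-fold to 2.17-fold. The 6 other members were split, 3 above and 3 below the control mean, with changes between -0.26 and 0.26 on the log2 scale. None of the 9 passed limma's test at an adjusted p under 0.05, which 4 of the 10372 genes did (0.0386%). All 3 Cyp4a genes had an unadjusted limma p under 0.05 and a higher mean, where 6.55% of all genes did so. None of the 6 others had an unadjusted p under 0.05, against 14.0% of all genes in either direction and 7.49% with a lower mean. A mean above the control mean, as in 3 of these 6, was found for 46.9% of all genes. The median change was 0.73 for the Cyp4a genes, -0.03 for the others and -0.02 for all genes tested. Differences of single genes subtract the control mean from the high fat mean of log2 values, and SE is their standard error in limma.

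**Figure D1:**
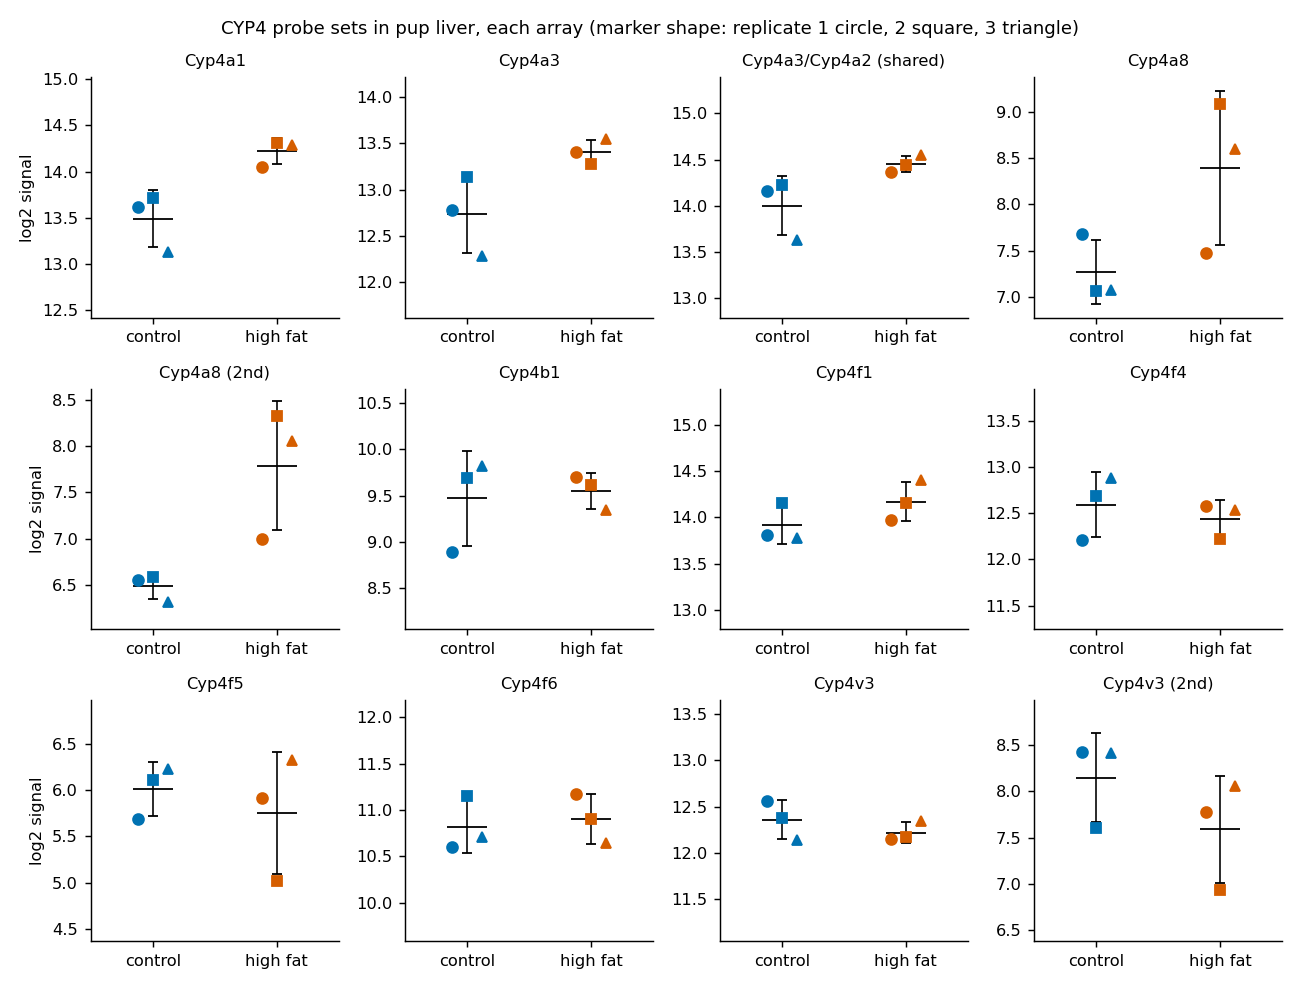
Log2 signal (y axis, the same span of units in every panel, not starting at 0) of each CYP4 probe set in the 3 control and 3 high fat arrays. Points are arrays and the black bars are the group mean ± SD. In the Cyp4a1 and Cyp4a3 panels the high fat points lie above all control points, and in Cyp4a8 high fat replicate 1 lies among the controls.

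Cyp4a1 encodes the main lauric acid omega-hydroxylase induced by peroxisome proliferators in rat liver. Its probe set, 1368934_at, read 13.62, 13.71 and 13.13 in control replicates 1 to 3 and 14.05, 14.31 and 14.29 in high fat replicates 1 to 3. The groups did not overlap, and the closest pair was control replicate 2 and high fat replicate 1. Group means were 13.49 ± 0.31 (SD, n = 3) and 14.22 ± 0.14 (SD, n = 3). The difference was 0.73 (SE 0.19, 95% interval 0.28 to 1.18), 1.66-fold, with a limma adjusted p of 0.211. Control replicate 3 was the lowest array, and without it the difference was 0.55. With 1 array left out the unadjusted limma p of Cyp4a1 remained under 0.05 in all 6 fits.

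The identity of that probe set carries a limit. The platform annotation gives it to Cyp4a1, but the RefSeq accession it lists belongs to Cyp4b1 in the current gene table. Such a conflict was found for 11 of 2900 probe sets with both identifiers in the table. Which transcript its probes read was not tested. If they read Cyp4b1, the difference of 0.73 would belong to a member outside Cyp4a, and Cyp4a1 would have no value of its own. Without this probe set the median change of the remaining 2 Cyp4a genes was 0.90.

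Cyp4a3 encodes a fatty acid omega-hydroxylase of liver and kidney. Its probe set (1370397_at) read 12.78, 13.14 and 12.28 in control replicates 1 to 3, then 13.41, 13.28 and 13.55 in the high fat arrays. Again every high fat array lay above every control array, with high fat replicate 2 just above control replicate 2, and control replicate 3 was the lowest. Non-overlapping groups with the high fat arrays on top, as in Cyp4a1 and Cyp4a3, were found in 9.26% of all genes tested. None of the 6 members outside Cyp4a had groups that did not overlap in either direction, against 20.8% of all genes. The Cyp4a3 means were 12.74 ± 0.43 and 13.41 ± 0.13 (SD, n = 3 each). The difference was 0.68 (SE 0.23, 95% interval 0.14 to 1.22), 1.6-fold, with an adjusted limma p of 0.284. It was 0.45 without control replicate 3, and the unadjusted limma p was 0.0652 without high fat replicate 3. An exact permutation test of 3 arrays against 3 gives at the least p = 0.10 (2-sided), which the non-overlapping members reach.

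Cyp4a2, which encodes an arachidonic acid omega-hydroxylase with higher levels in adult male than female rats, was read only together with Cyp4a3. The shared probe set, 1394844_s_at, stood at 14.16, 14.22 and 13.63 in controls and at 14.36, 14.44 and 14.55 in high fat arrays. Its groups did not overlap either, although control replicate 2 and high fat replicate 1 were only a small step apart. Tested among every probe set apart, its difference was 0.45 (SE 0.19, 95% interval -0.01 to 0.90), with a limma adjusted p of 0.415. How much of the shared signal comes from either gene, or from Cyp4a2l1, cannot be told apart.

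Cyp4a8, which encodes another Cyp4a omega-hydroxylase and is best known from kidney and prostate, showed another pattern across the arrays. Its brighter probe set (1368607_at) read 7.68, 7.06 and 7.07 in controls and 7.48, 9.09 and 8.6 in high fat arrays. High fat replicates 2 and 3 were above every control, but high fat replicate 1 lay below control replicate 1, so the groups overlapped. Means were 7.27 ± 0.35 and 8.39 ± 0.83 (SD, n = 3 each). The difference was 1.12 (SE 0.41, 95% interval 0.14 to 2.10), 2.17-fold, with a limma adjusted p of 0.307. Leaving out high fat replicate 2 gave 0.77, and leaving out high fat replicate 1 gave 1.58. The unadjusted limma p lay between 0.0804 and 0.0878 when control replicate 2 or 3, or high fat replicate 2 or 3, was left out. The second Cyp4a8 probe set, 1393894_at, gave the same order among high fat arrays, at 7.0, 8.32 and 8.05 against 6.55, 6.59 and 6.32 in controls. In it the groups did not overlap, and its difference was 1.31 (SE 0.33, limma adjusted p = 0.257 among every probe set).

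With every probe set tested apart, none of the 12 passed at an adjusted limma p under 0.05, against 0.0322% of 18625 probe sets. An unadjusted p under 0.05 with a higher mean was found for 4 of the 12, both Cyp4a8 probe sets and those of Cyp4a1 and Cyp4a3, against 6.17% of all. High fat arrays above all controls were found for 4 of the 12, those of Cyp4a1 and Cyp4a3, the shared one and the second of Cyp4a8, against 8.93% of all.

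**Figure D2:**
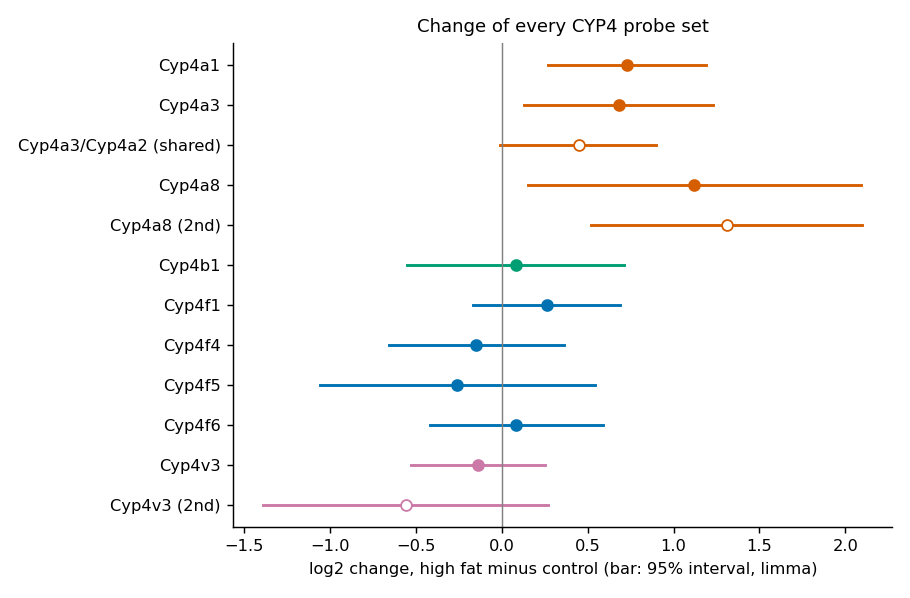
Log2 change, high fat minus control (x axis), of all 12 CYP4 probe sets, each tested among every probe set, with limma's 95% interval as the bar. Filled points are the probe sets used for their gene and open points the second or shared ones. Intervals of Cyp4a1, Cyp4a3 and both Cyp4a8 probe sets lie above 0, and all those of Cyp4b1, Cyp4f and Cyp4v3 include 0.

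Cyp4b1 lies next to Cyp4a1 on chromosome 5. It read 8.89, 9.69 and 9.82 in controls and 9.70, 9.61 and 9.34 in high fat arrays. The high fat arrays lay within the range of the controls, in which control replicate 1 was the lowest. The difference was 0.08 (SE 0.26, 95% interval -0.54 to 0.71; limma adjusted p = 0.918), and the interval reaches almost to the difference of Cyp4a1. Without control replicate 1 it was -0.21. These values are from the probe set annotated to Cyp4b1. The probe set annotated to Cyp4a1, with a difference of 0.73, lists a RefSeq identifier that belongs to Cyp4b1, and which of these genes it reads was not tested.

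The Cyp4f genes take part in the breakdown of leukotrienes and in the omega-hydroxylation of arachidonic acid. Cyp4f1 read 13.81, 14.16 and 13.78 in controls and 13.97, 14.15 and 14.40 in high fat arrays. High fat replicate 3 was the highest, and the other two high fat arrays lay within the control range. The difference was 0.26 (SE 0.17, 95% interval -0.15 to 0.67), with an adjusted limma p of 0.556. This was the smallest p among the members outside Cyp4a.

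Cyp4f4 stood at 12.21, 12.69 and 12.88 in controls and at 12.58, 12.22 and 12.53 in high fat arrays. All high fat values lay inside the control range, and the difference was -0.15 (SE 0.21, 95% interval -0.64 to 0.34; limma adjusted p = 0.786). Cyp4f6 stood at 10.60, 11.15 and 10.71 in controls and at 11.17, 10.90 and 10.64 in high fat arrays, again with overlap. Its difference was 0.08 (SE 0.21, 95% interval -0.41 to 0.58; limma adjusted p = 0.892). The order of the arrays was therefore not shared between these genes, since control replicate 3 was the highest control for Cyp4f4 and control replicate 2 for Cyp4f6.

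Cyp4f5 was close to the lower limit of the analysis, with a mean of 5.88 against a limit of 5.83. It read 5.69, 6.11 and 6.23 in controls and 5.91, 5.02 and 6.32 in high fat arrays. High fat replicate 2 was the lowest and high fat replicate 3 the highest of the 6 arrays. The difference of -0.26 (SE 0.34, 95% interval -1.06 to 0.54; limma adjusted p = 0.767) turned to 0.10 without high fat replicate 2. Of 8 further CYP4 genes listed, 1 was measured, Cyp4f17, with a difference of 0.01 (SE 0.42, limma adjusted p = 0.992).

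Cyp4v3, a fatty acid omega-hydroxylase of many tissues, had a pair of probe sets. The brighter one, 1388127_at, read 12.56, 12.38 and 12.14 in controls and 12.15, 12.17 and 12.35 in high fat arrays. All high fat arrays lay inside the control range, and the difference was -0.14 (SE 0.15, 95% interval -0.51 to 0.23; limma adjusted p = 0.721). The dimmer one, 1370889_at, read 8.43, 7.6 and 8.42 against 7.78, 6.94 and 8.06. It had a difference of -0.56 (SE 0.35, 95% interval -1.39 to 0.27; limma adjusted p = 0.565 among every probe set), and high fat replicate 2 was the lowest.

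Array by array, the mean of the Cyp4a genes stood apart from that of the other members in most high fat pups. With each gene minus its control mean, the mean of the 3 Cyp4a genes was 0.19, 0.14 and -0.34 in control replicates 1 to 3 and 0.48, 1.06 and 0.98 in high fat replicates 1 to 3. The mean of the 6 other members was -0.23, 0.17 and 0.06 in controls and 0.05, -0.18 and 0.07 in high fat arrays. The gap between both means was 0.42, -0.03 and -0.40 in controls and 0.43, 1.24 and 0.91 in high fat arrays. High fat replicate 1 was thus at nearly the same gap as control replicate 1, and high fat replicates 2 and 3 were above all others. The lower Cyp4a mean of high fat replicate 1 mostly follows Cyp4a8, which ran from 7.48 to 9.09 over the high fat arrays. Cyp4a1 ran only from 14.05 to 14.31 there and Cyp4a3 from 13.28 to 13.55. The gap is given as a description and was not tested, since the members were chosen with results of these arrays known.

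**Figure D3:**
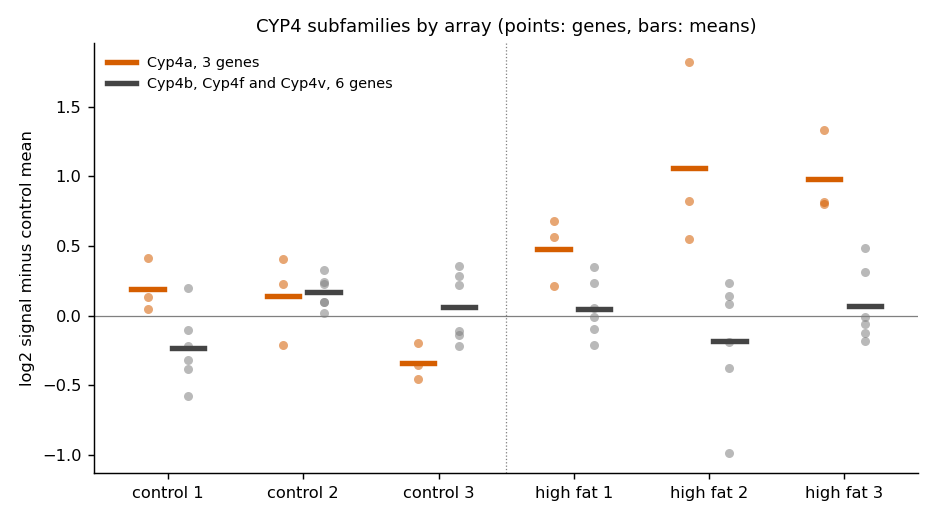
Log2 signal minus the control mean of each gene (y axis) in the 6 arrays (x axis), for the 3 Cyp4a genes and the 6 other members. Points are genes and bars are means over the genes of a subfamily group. The Cyp4a bars are highest in high fat replicates 2 and 3, at 1.06 and 0.98, while the bars of the other members stay between -0.23 and 0.17.

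Of all genes tested, Zfp457 (root mean square difference 0.07), Ccn3 (0.08) and Rapgef4 (0.11) had values over the 6 arrays most like those of Cyp4a1, each taken minus its control mean. For Cyp4a3 they were Smc4 (0.12), Ttc28 (0.12) and Dnmbp (0.13), and for Cyp4a8 Thnsl1 (0.18), C2h4orf46 (0.22) and Cavin3 (0.26). For Cyp4f1 the nearest were Hint3 (0.04), Sh3glb1 (0.06) and Slc22a5 (0.06), the last of which encodes the carnitine carrier of the plasma membrane. Cyp4a1 and Cyp4a3 differed by 0.15 from each other, and from Cyp4a8 by 0.53 and 0.67. Cyp4f1 was nearer to both than Cyp4a8 was, at 0.37 from Cyp4a1 and 0.35 from Cyp4a3. The other members outside Cyp4a were 0.54 to 0.87 from Cyp4a1 and 0.50 to 0.81 from Cyp4a3. From Cyp4a8 all members outside Cyp4a were farther than Cyp4a1 and Cyp4a3, at 0.79 to 1.28. The likeness is a description over 6 arrays of the same pups.

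Alcohol and aldehyde dehydrogenases carry out the steps after omega-hydroxylation. Of 10 such genes listed, 7 were tested, 6 with a higher and 1 with a lower mean in high fat pups, and the median change was 0.32. None passed at an adjusted p under 0.05, and 3 had an unadjusted limma p under 0.05, all higher. Over all genes 6.55% had such a p with a higher mean and 46.9% had a higher mean. Adh7, an alcohol dehydrogenase with high activity on long-chain alcohols, read 6.04, 6.26 and 7.09 in controls and 8.75, 7.62 and 7.50 in high fat arrays. Its groups did not overlap (difference 1.5, SE 0.41, limma adjusted p = 0.224). Adh4 read 7.69, 9.17 and 8.55 against 10.19, 9.30 and 9.98, also without overlap (1.35, SE 0.40, limma adjusted p = 0.252). Aldh1a1, the retinal dehydrogenase, read 11.81, 13.30 and 11.86 against 13.53, 13.22 and 13.64, with overlap at control replicate 2. Its difference was 1.14 (SE 0.40), and its unadjusted limma p lay between 0.0600 and 0.0863 when control replicate 1 or 3, or high fat replicate 1 or 3, was left out. The remaining 4 were between -0.09 and 0.32, among them Aldh3a2, the fatty aldehyde dehydrogenase, at 0.32 (SE 0.14).

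Peroxisomal genes that take up, activate or shorten long-chain and dicarboxylic acids were listed as 17, of which 13 were tested. Of these, 11 had a higher and 2 a lower mean, with a median change of 0.31, and 4 had an unadjusted limma p under 0.05, all higher, where the shares over all genes were 46.9% higher and 6.55% higher at such a p. None passed the adjusted test. Ehhadh, the bifunctional enzyme that shortens dicarboxylic acids, read 11.87, 12.86 and 11.89 in controls and 13.97, 13.37 and 13.82 in high fat arrays (1.52, SE 0.31, limma adjusted p = 0.179). Pex11a, which takes part in peroxisome division, read 9.63, 10.11 and 9.73 against 11.48, 10.86 and 10.40 (1.09, SE 0.29, limma adjusted p = 0.219). Acot4, a peroxisomal acyl-CoA thioesterase, read 10.31, 10.79 and 10 against 11.21, 12.17 and 11.28 (1.18, SE 0.31, limma adjusted p = 0.219). In all 3, which are named for their small p, the high fat arrays lay above every control array. Of the other peroxisomal genes tested, only Slc27a2 (0.12) had this order, which was found in 9.26% of all genes.

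**Figure D4:**
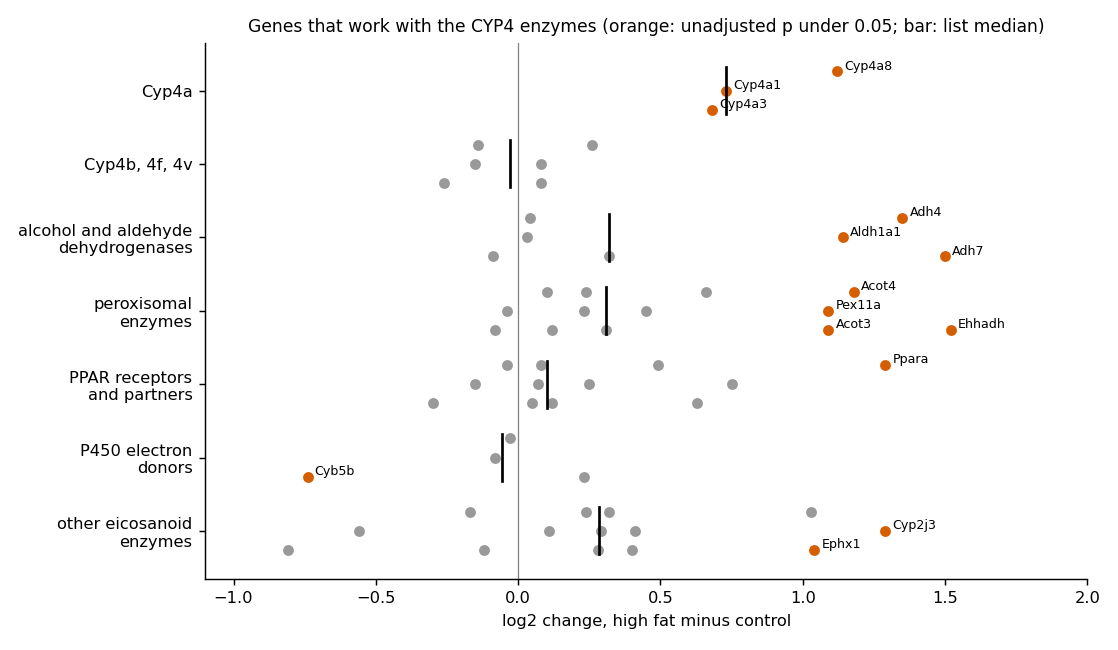
Log2 change, high fat minus control (x axis), of each tested gene in the CYP4 groups and in 5 lists of genes that act with them (y axis). Orange points have an unadjusted limma p under 0.05 and are named, and the black bars are list medians. The Cyp4a median is 0.73, against 0.32 for the dehydrogenases and 0.31 for the peroxisomal genes.

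PPAR receptors, their partners and coactivators were all tested, 12 of 12, with 9 higher, 3 lower and a median change of 0.10. Among all genes tested, 46.9% had a higher mean. Ppara alone, 1 of 12, had an unadjusted limma p under 0.05, against 14.0% of all genes in either direction. It read 6.40, 6.82 and 6.35 in controls and 7.92, 7.55 and 7.97 in high fat arrays, without overlap (1.29, SE 0.19, limma adjusted p = 0.131). Lpin1, a coactivator of PPAR alpha and phosphatidate phosphatase, was at 0.75 (SE 0.35) and the receptor partner Rxrb at 0.25 (SE 0.15). Lpin1 was at 1.17 without control replicate 2.

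P450 enzymes of the endoplasmic reticulum draw electrons from the reductase Por and in part from cytochrome b5. Por was at 0.23 (SE 0.28), Cyb5a at -0.03 (SE 0.12) and the reductase Cyb5r3 at -0.08 (SE 0.25). Cyb5b, the form of the outer mitochondrial membrane, was lower at -0.74 (SE 0.26, limma adjusted p = 0.293), with 10.64, 10.60 and 11.27 in controls and 10.49, 9.76 and 10.06 in high fat arrays. The groups did not overlap, and the unadjusted limma p was 0.0689 when control replicate 3 was left out, 0.0794 when high fat replicate 2 was and 0.0597 when high fat replicate 3 was. The median change of the 4 genes was -0.06, and Cyb5b alone had an unadjusted p under 0.05, against 14.0% of all genes.

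Other enzymes of arachidonic acid and its products numbered 17, of which 14 were tested, 10 higher and 4 lower, with a median change of 0.29. A higher mean was found for 46.9% of all genes. Cyp2j3, an epoxygenase, read 10.62, 10.13 and 10.16 in controls and 11.56, 11.87 and 11.35 in high fat arrays (1.29, SE 0.20, limma adjusted p = 0.135). Its groups did not overlap. Ephx1, the microsomal epoxide hydrolase, read 11.48, 12.59 and 11.95 against 13.12, 13.08 and 12.95, also without overlap (1.04, SE 0.27, limma adjusted p = 0.211). Cyp2c23, an arachidonic acid epoxygenase, was at 0.29 (SE 0.12). Of the 14, Cyp2j3 and Ephx1 had an unadjusted limma p under 0.05, a share near the 14.0% of all genes, and none passed the adjusted test.

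These are the values without the array that carried pancreas transcripts, and without the one that stood apart in its sex-linked transcripts. With high fat replicate 1 left out the differences were 0.82 for Cyp4a1, 0.68 for Cyp4a3 and 1.58 for Cyp4a8, and with high fat replicate 3 left out they were 0.69, 0.61 and 1.02.

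**Figure D5:**
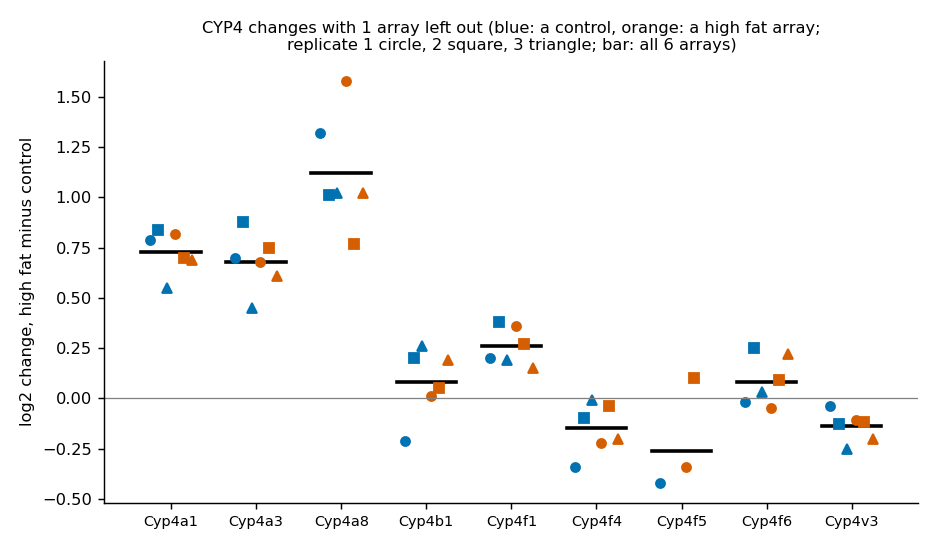
Log2 change, high fat minus control (y axis), of each tested member (x axis) with 1 array left out. Points are the 6 fits, and the black bar is the value with all 6 arrays. Cyp4f5 fell below the brightness limit in 3 of the fits. The Cyp4a points lie between 0.45 and 1.58, and those of the other members between -0.42 and 0.38.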

How the data were processed

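Liver RNA of 6 pups was hybridised to Affymetrix arrays, 3 per maternal diet. The deposited values are log2 signals of 31099 probe sets, the log2 scale being found from the values: with base 2 undone, every array had a 2% trimmed mean of 500.2. The method that summarised probes into probe sets was not stated in the labels or files. Since array quartiles lay up to 0.22 apart, quantile normalization was applied. Symbols came from the platform annotation, updated through the GRCr8 gene table (20760 of 20826 probe sets with 1 gene matched). The lowest 40% of probe sets by mean were left out, which set the limit of 5.83. High fat and control arrays were set against each other in limma 3.58.1 (lmFit and eBayes, 2-sided; R 4.3.3), with Benjamini-Hochberg adjustment over 10372 genes. The procedure was run on simulated data with planted changes larger than those of Cyp4a1 and Cyp4a3. That run cannot show whether changes of their size would pass the adjusted test. Likeness was the root mean square difference over arrays. Promoters were aligned with Biopython 1.88 in Python 3.11.15, which also drew the figures (matplotlib 3.10.9).

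The members and lists were chosen with earlier results of these data known. The text names all members, the 3 genes of each list with the smallest p (all of them where 4 or fewer were tested), and the 3 genes most like each Cyp4a member and the other member with the smallest p. Marker genes in the text, Aldh3a2 and the sex-linked genes are outside that rule. Alternatives covered normalization, brightness filter, genes with several probe sets, limma's variance model and array weights, a block for the replicate number, and each array left out. Testing every probe set apart and leaving out the Cyp4a1 probe set were added after seeing the data. The number of arrays limits the precision.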

Additional observations from a re-analysis of the deposited data

How the results depend on the processing

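No member passed an adjusted p under 0.05 in limma under any of the 15 alternatives, and all 3 Cyp4a changes were above 0 in each. The Cyp4a median ranged from 0.55 to 0.88 with 1 array left out, and that of the other members from -0.12 to 0.20, where Cyp4f5 dropped out of some fits. Members with an unadjusted p under 0.05 numbered 1 to 3 with 1 array left out. Cyp4a3 had an unadjusted limma p of 0.0512 with arrays centred on their medians, and Cyp4a8 one of 0.0512 with no brightness filter. Samples with the same number did not deviate together (correlations -0.13, -0.13 and -0.14 across genes). With the replicate number as a block, 2 members had an unadjusted p under 0.05 and 0 genes passed the adjusted threshold, against 1102 at an unadjusted p under 0.05. With no brightness filter 1 gene passed and the dehydrogenase median was 0.73, over 8 genes. With 1 array left out, 0 to 3 genes passed in limma (2 without high fat replicate 1, and 1 when the second array of either group was left out), against 1054 to 1368 at an unadjusted p under 0.05. With 1 array left out, the sign turned for Cyp4b1 (range -0.21 to 0.26, negative without control replicate 1), Cyp4f6 (-0.05 to 0.25, also -0.02 without control replicate 1) and Cyp4f5 (-0.42 to 0.10, above 0 without high fat replicate 2). It also turned for Por (-0.03 to 0.46, negative without control replicate 1) and Cyb5r3 (-0.25 to 0.15, with 0.08 without control replicate 3). The cause was not tested.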
